A study of Mus musculus with 3 samples.

Results

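*Trp63*, *Grhl2*, *Grhl3*, *Tfap2a*, *Esrp1*, *Esrp2*, *Nectin1* and *Cdh1* are 8 genes of the oral epithelium whose loss or variation has been linked to cleft palate or cleft lip. They were chosen by name, with earlier results of these data known. Each was found once, as 1 row, among the 32285 genes of the count tables. Their RNA was followed in the mouse soft palate at E14.5, in the cells in which the epithelial adhesion gene *Epcam* was detected, in cells of the palatal mesenchyme, and in 6 other kinds of cell.

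The 8 genes act at different steps of making an epithelium. *Trp63* encodes p63, the transcription factor that sets up stratified epithelia, and *Grhl2*, *Grhl3* and *Tfap2a* encode further transcription factors of surface epithelium. *Esrp1* and *Esrp2* encode RNA-binding proteins that direct the epithelial pattern of alternative splicing, while *Nectin1* and *Cdh1* (E-cadherin) encode adhesion molecules of the adherens junction. During palate formation the shelves are covered by basal cells under a flat outer layer, the periderm, and the epithelium between the shelves has to adhere and then be removed for them to fuse. *Krt6a*, a keratin of periderm and of superficial oral epithelium, was used to divide the *Epcam*-positive cells.

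Single cells were captured from the soft palate, dissected from the posterior part of the palatal region, with the 10x Genomics 3′ v2 chemistry, in which each captured transcript carries a unique molecular identifier (UMI) and is counted once. There were 2 control libraries and 1 library of *Osr2*-Cre;Alk5fl/fl embryos, all on a C57BL/6 background according to the labels. *Alk5* is the older symbol of *Tgfbr1*, the type I TGF-β receptor; the controls are described as *Tgfbr1* fl/fl or *Tgfbr1* fl/+ littermates, and embryos were taken without regard to sex. *Osr2*-Cre is a driver of the palatal mesenchyme, so the epithelium is not the tissue that it targets, and nothing in the labels says whether the 2 controls came from separate embryos. The main tests take the library as a block, so their p-values measure how the difference between cell sets varies over the 3 libraries. The mutant is 1 of these, so any difference between the genotypes in that contrast is part of this spread. Where the controls did not come from separate embryos, the spread between them may be technical. Values of the libraries are given in the order control 1, control 2, mutant.

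The libraries held 2816, 4067 and 8690 barcodes and between 22624711 and 63505144 UMIs, and 2056, 3689 and 7515 cells were kept. The libraries shared between 18 and 49 barcodes pairwise. The 3′ UMIs of *Tgfbr1* in mesenchymal cells stood at 53.7, 63.1 and 49.7 counts per 1000000 UMIs (CPM), which is no check of the labels, since a 3′ tag can lie outside the deleted part. *Epcam* UMIs were found in 296, 455 and 647 cells, or 14.4%, 12.3% and 8.61% of the kept cells. Of these, 43, 99 and 143 had a *Krt6a* UMI (*Krt6a*-detected) and 253, 356 and 504 had none (*Krt6a*-undetected). Mesenchymal cells, with no *Epcam* UMI, at least 2 of 6 mesenchymal markers and fewer than 2 markers of any other kind, numbered 941, 1852 and 3403.

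The *Epcam*-positive cells carried epithelial RNA and also mesenchymal RNA. The summed level of 6 basal epithelial markers (*Krt5*, *Krt14*, *Krt15*, *Itga6*, *Itgb4* and *Col17a1*) was 1320, 1051 and 876 CPM in them and 81.6, 58.0 and 31.9 CPM in mesenchymal cells. The 6 mesenchymal markers summed to 342, 500 and 634 CPM in the same *Epcam*-positive cells, with all 6 detected in each library, and 48.3%, 59.8% and 53.6% of the cells held at least 2 of them. The mutant had the highest mesenchymal and the lowest basal marker level. With those cells left out, the mesenchymal markers summed to 43.7, 75.3 and 83.2 CPM. That step left RNA of other cell types in the set, as myogenic markers summed to 217, 17.5 and 11.8 CPM before and 381, 17.0 and 45.6 CPM after that step, neuronal markers to 50.04, 33.7 and 136 CPM before and 17.9, 37.3 and 232 CPM after, and myeloid markers to 41.7, 74.5 and 11.3 CPM before and 37.6, 241 and 2.85 CPM after. The tests and the ratios of the mutant to the controls are given with and without the *Epcam*-positive cells that held at least 2 mesenchymal markers, while levels and shares are those of all *Epcam*-positive cells, and the part of RNA from other cell types in each result was not tested.

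By the GENCODE annotation of GRCm38, each of the 8 is a protein-coding gene, and UMIs from all its exons and transcripts are counted together. *Trp63* lies at chr16:25683763-25892102 on the plus strand and *Grhl2* at chr15:37233036-37363569 on the plus strand. *Grhl3* lies at chr4:135541888-135573630 and *Tfap2a* at chr13:40715302-40738376, both on the minus strand. *Esrp1* lies at chr4:11331933-11386783 on the minus strand. *Esrp2*, at chr8:106130319-106136974 on the minus strand, and *Cdh1*, at chr8:106603351-106670246 on the plus strand, are on the same chromosome. *Nectin1* lies at chr9:43743984-43807461 on the plus strand.

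RefSeq promoter windows of build GRCm38.p6 were at hand for *Grhl3* (1 window) and *Tfap2a* (2 windows). The 250 bases before the start site of *Grhl3* are shown because *Grhl3* had the largest difference between *Krt6a*-detected and *Krt6a*-undetected cells of the 8. They lie at chr4:135573633-135573882 on the minus strand, are written from 5′ to 3′, and carry in capitals the only match to the motifs searched.
*Grhl3* promoter: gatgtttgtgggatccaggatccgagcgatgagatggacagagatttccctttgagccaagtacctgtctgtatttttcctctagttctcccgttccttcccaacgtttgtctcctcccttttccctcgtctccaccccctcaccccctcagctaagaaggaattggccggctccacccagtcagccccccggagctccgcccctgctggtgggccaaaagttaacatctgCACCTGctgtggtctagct
Capitals mark CACCTG, the E-box that Snail and Zeb repressors can bind, at positions -19 to -14 from the start site. CACCTG was found on either strand in 17.2% of all 32851 promoter windows of this length. The GRHL site AACCGGTT (0.116% of windows), the AP-2 site GCCNNNGGC (13.7%) and the TATA box TATAAA (12.4%) were searched on both strands and were not matched in this window, and neither window of *Tfap2a* matched any of the 4. No matches overlapped. These are matches of letters, and no binding was measured.

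Of the transcription factors, *Trp63* stood at 51.1, 48.3 and 32.8 CPM in *Epcam*-positive cells and at 2.35, 2.05 and 1.74 CPM in mesenchymal cells. *Grhl2*, a regulator of epithelial junctions, was at 26.8, 30.3 and 15.7 CPM against 0.619, 1.45 and 0.727 CPM. *Grhl3*, a relative of *Grhl2* known for its role in the periderm and the skin barrier, was at 13.6, 14.7 and 6.55 CPM. In mesenchymal cells *Grhl3* had 0 UMIs in control 1, where a count of 0 allows up to 0.457 CPM (exact 95% Poisson limit), and 0.599 and 0.687 CPM in the other libraries. For these 3 genes, as for each other gene of the set, every *Epcam*-positive value lay above every mesenchymal value. The share of all genes without such overlap was not counted.

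*Tfap2a*, a factor of surface ectoderm and of neural crest, was also found outside the epithelium. It stood at 19.8, 20.7 and 12.9 CPM in *Epcam*-positive cells. In mesenchymal cells it was at 6.56 and 4.96 CPM in the controls and at 0.808 CPM in the mutant, from 53, 58 and 20 UMIs. The cells of the glial gate, which carry markers of neural crest-derived Schwann cells and their precursors, were at or above the level of the *Epcam*-positive cells of their own library, at 21.7, 58.9 and 61.9 CPM. Only 8, 27 and 128 glial cells with 2, 8 and 24 *Tfap2a* UMIs lie behind these values.

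The splicing regulators had little RNA in mesenchyme. *Esrp1* stood at 49.4, 45.3 and 28.8 CPM in *Epcam*-positive cells and at 1.86, 1.20 and 0.848 CPM in mesenchymal cells. *Esrp2* stood at 21.3, 19.3 and 7.82 CPM against 0.495, 0.513 and 0.566 CPM. In both genes the mutant was the lowest of the *Epcam*-positive values, and it lay 34.0 times (*Esrp1*) and 13.8 times (*Esrp2*) above the mesenchymal value of the same library.

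The adhesion molecules differed from each other. *Cdh1* stood at 80.5, 93.8 and 46.6 CPM in *Epcam*-positive cells against 2.60, 3.93 and 1.45 CPM in mesenchymal cells. *Nectin1*, which joins neighbouring cells by binding nectins of the next cell, stood at 29.6, 27.7 and 19.1 CPM against 9.28, 6.84 and 7.55 CPM, a ratio of 3.19, 4.05 and 2.53. Cells of the myogenic gate, which carry markers of muscle precursors, had *Nectin1* at 32.5, 25.5 and 29.5 CPM from 37, 26 and 23 UMIs. The intervals of *Nectin1* in myogenic and *Epcam*-positive cells overlapped in each library.

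**Figure D1:**
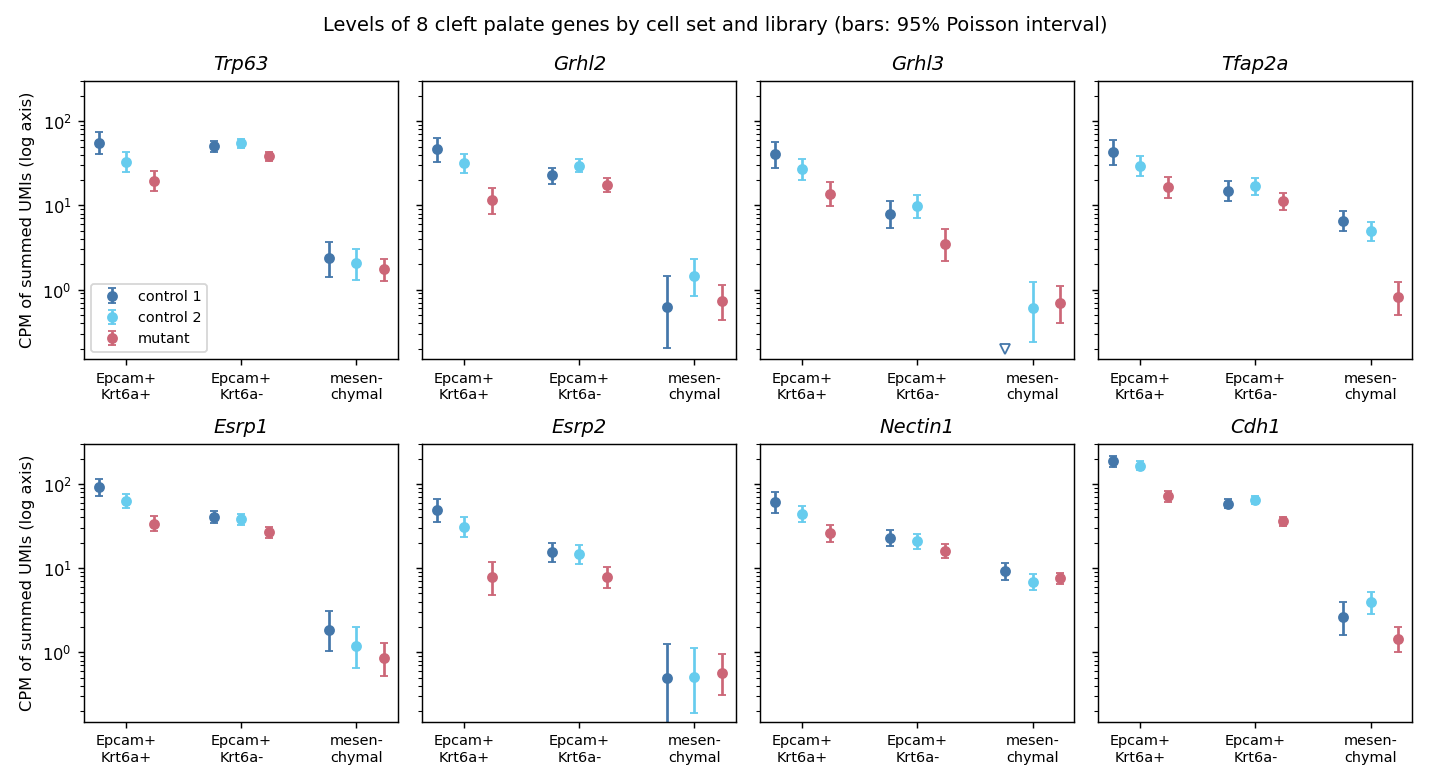
Level of each gene in CPM (log axis) in *Krt6a*-detected and *Krt6a*-undetected *Epcam*-positive cells and in mesenchymal cells, 1 point per library with its 95% Poisson interval. The open triangle marks 0 UMIs of *Grhl3* in control 1. Each gene lies lower in mesenchymal cells, and *Nectin1* and, in the controls, *Tfap2a* come nearest to their epithelial level.

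The first comparison asked how far each gene separates epithelium from mesenchyme. A quasi-likelihood test in edgeR was run on UMIs summed per library and cell set, with the library as a block. Benjamini-Hochberg adjustment covered all genes fitted. The test called 8 of the 8 higher in *Epcam*-positive cells, where 16.4% of 14007 genes were called higher and 15.4% lower. On the log2 scale the differences were 4.91 ± 0.15 (SE derived from the fit, n = 3 libraries) for *Esrp1*, 4.71 ± 0.13 for *Cdh1*, 4.51 ± 0.31 for *Esrp2* and 4.49 ± 0.21 for *Grhl2*. *Trp63* differed by 4.28 ± 0.13 and *Grhl3* by 4.17 ± 0.49. The smallest differences were those of *Tfap2a*, at 2.32 ± 0.37, and *Nectin1*, at 1.55 ± 0.15. The adjusted p lay between 7.2e-07 for *Cdh1* and 0.0026 for *Tfap2a*. *Tfap2a* was the 1 gene whose call was lost under an alternative that was run, at an adjusted p of 0.073 when the library was left out of the edgeR model. With the *Epcam*-positive cells of at least 2 mesenchymal markers left out, 8 of the 8 were called higher, with differences between 1.82 ± 0.20 for *Nectin1* and 5.40 ± 0.22 for *Esrp1*. Of all 13171 genes tested there, 2513 were called higher and 2571 lower. Cells with mesenchymal markers were left out on the epithelial side only, so larger differences from mesenchyme are not read as a result.

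Related genes were read from the same fit. Of 22 other epithelial transcription factors tested, 19 were called higher and 1, *Klf4*, lower, and the median log2 difference was 3.70, beside -0.023 over all genes. *Ehf* (5.07 ± 0.24), *Sox2* (4.74 ± 0.11) and *Elf5* (4.73 ± 0.37) led them. Of 18 p63-linked epidermal genes 17 were called higher and 0 lower, among them the desmosomal genes *Dsp* (4.74 ± 0.15) and *Pkp1* (4.65 ± 0.21) and *Sfn* (4.72 ± 0.26), which encodes 14-3-3σ. Of 6 basal markers, 6 were called higher, led by *Krt5* (4.62 ± 0.10). Of 17 periderm-linked genes tested, 16 were higher, led by *Gabrp* (6.15 ± 0.60) and *Cldn4* (5.62 ± 0.16), and *Sbsn* was lower (-0.40 ± 0.12).

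Among the partners of *Cdh1* and *Nectin1* in the adherens junction, 11 of 15 were called higher and 2 lower. *Nectin4* (4.83 ± 0.24) and *Plekha7* (3.40 ± 0.25) led the first, while the mesenchymal cadherins *Cdh11* (-1.03 ± 0.17) and *Cdh2* (-0.90 ± 0.14) were the second. Of 15 other palatal genes linked to clefts, 11 were higher, led by *Sfn*, *Ripk4* (4.45 ± 0.19), a kinase of epidermal differentiation, and *Shh* (4.42 ± 0.34), and 3 were lower, among them *Fgf10* (-1.22 ± 0.25) and *Tbx22* (-0.89 ± 0.15). Of 11 other splicing factors only 3 were called, all higher, with *Rbm47* (3.34 ± 0.23) ahead of *Ptbp1* (0.26 ± 0.068) and *Celf1* (0.26 ± 0.070). The 6 factors of epithelial-mesenchymal transition that do not define the mesenchymal gate were all called lower, among them *Snai1* (-1.14 ± 0.13), *Zeb2* (-0.92 ± 0.085) and *Foxc2* (-0.86 ± 0.22). Lists share genes, such as *Sfn*, so their counts are not independent.

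The RNA of these genes was sparse per cell. *Cdh1* UMIs were found in 42.6%, 47.7% and 36.3% of *Epcam*-positive cells, and in 2.13%, 2.05% and 0.852% of mesenchymal cells, which give the background. *Grhl3*, the sparsest, was found in 11.1%, 12.3% and 6.80% of *Epcam*-positive cells and in 0 of 941, 7 of 1852 and 17 of 3403 mesenchymal cells, where 0 of 941 allows a share of up to 0.391% (exact 95% bound). The cells compared differed in depth, with medians of 12597, 10258 and 10127 UMIs in *Epcam*-positive and 7731, 5351 and 5722 in mesenchymal cells. At 2000 UMIs per cell, which left out between 3 and 14 *Epcam*-positive cells and between 5 and 101 mesenchymal cells per library, *Cdh1* was found in 11.3%, 11.9% and 10.4% of *Epcam*-positive cells and in 0.641%, 0.733% and 0.212% of mesenchymal cells. At equal depth *Cdh1* thus remained more frequent in *Epcam*-positive than in mesenchymal cells of each library. *Grhl3* was then found in 3, 7 and 10 *Epcam*-positive cells, or 1.03%, 1.55% and 1.58%, and was not lowest in the mutant.

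Few cells carried the whole set at once. In *Epcam*-positive cells a mean of 2.30, 2.22 and 1.71 of the 8 genes was detected, and 32.8%, 25.7% and 24.9% of the cells had none of them. The mutant had the lowest mean but not the largest share of cells without any. A mesenchymal cell had a mean of 0.163, 0.117 and 0.0923 of the genes. In *Krt6a*-detected cells 83.7%, 62.6% and 46.2% had at least 3 of the genes, against 37.9%, 35.1% and 21.4% of *Krt6a*-undetected cells. Thinned to 2000 UMIs, *Krt6a*-detected cells had a mean of 1.02, 0.788 and 0.559 of the genes and *Krt6a*-undetected cells 0.372, 0.399 and 0.339.

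Across all 9 cell sets of the 3 libraries, the order of levels was led by the 2 epithelial sets for *Trp63*, *Grhl2*, *Grhl3*, *Esrp1*, *Esrp2* and *Cdh1*. *Trp63* came next in the myogenic gate of both controls, at 8.77 and 10.8 CPM from 10 and 11 UMIs, and had 0 UMIs in that gate in the mutant, which allows up to 4.74 CPM. *Cdh1* had 18.1 CPM in the glial gate of the mutant from 7 UMIs, and 0 and 7.36 CPM there in the controls, where intervals overlap. *Grhl2*, *Grhl3* and *Esrp2* had at most 5 UMIs in any library in the myeloid, endothelial, myogenic, glial, neuronal and erythroid gates, so neighbours in that order cannot be told apart at this depth. *Tfap2a* was led by the glial gate in control 2 and the mutant, and *Nectin1* by *Krt6a*-detected cells in both controls and by the myogenic gate in the mutant.

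**Figure D2:**
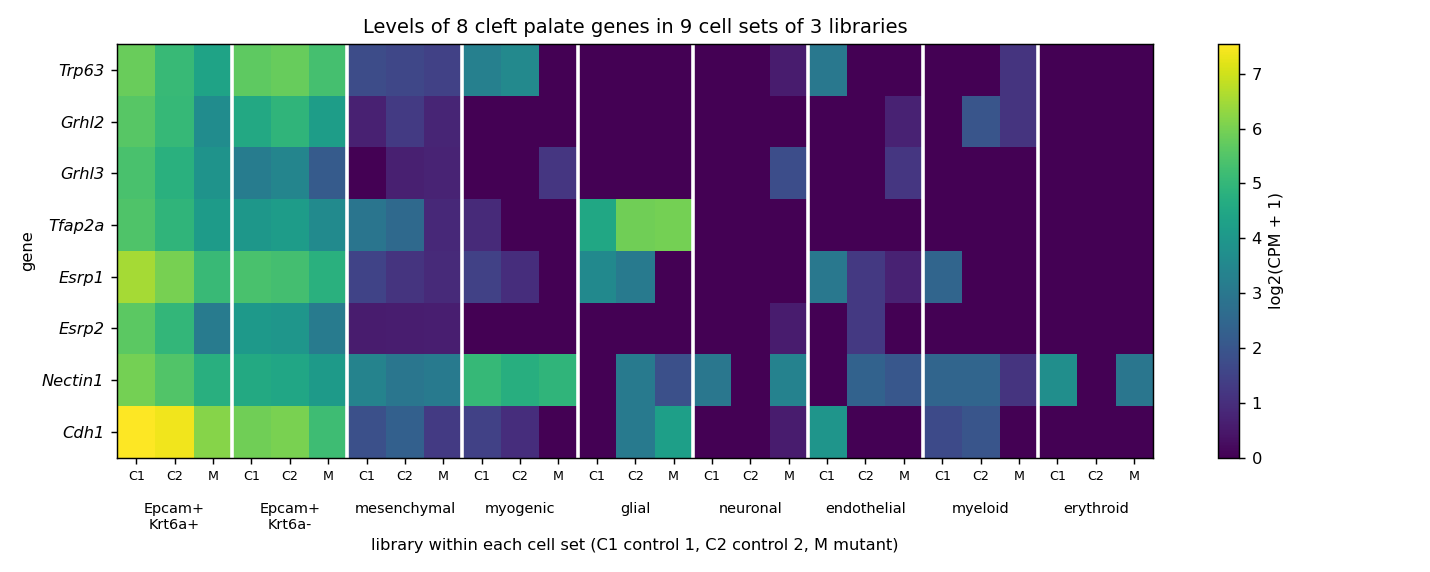
Level of each gene as log2(CPM + 1) (colour) in 9 cell sets, with control 1, control 2 and the mutant side by side in each. The brightest fields lie under the *Epcam*-positive sets, except for *Tfap2a*, which is brightest in the glial gate of control 2 and the mutant. For *Nectin1* the myogenic gate is the brightest in the mutant only.

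The genes most like each member over these 27 sums are given as a description, by Pearson's r of log2(CPM + 1) among 4119 genes of at least 50 CPM in 1 cell set. The sums share libraries and differ in depth. *Cldn6*, which encodes a claudin of embryonic epithelia, was among the 3 most alike for *Grhl2* (r = 0.87), *Grhl3* (0.87), *Esrp1* (0.89), *Esrp2* (0.90) and *Cdh1* (0.90). *Perp*, a desmosomal gene, headed the list of *Grhl2* (0.89), *Trim29* that of *Esrp1* (0.90), *Fgf21* that of *Grhl3* (0.90), *Adamts18* that of *Esrp2* (0.90) and *Krt8* that of *Trp63* (0.85). *Tfap2a* was most like *Ppp1r14c* (0.93). *Nectin1* had the lowest values of r, with *Tagln* (0.75), *Cep41* (0.73) and *Bcam* (0.70).

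The second comparison asked which of the genes differ between *Krt6a*-detected and the other *Epcam*-positive cells. Of the 43, 99 and 143 *Krt6a*-detected cells 18, 25 and 33 had a single *Krt6a* UMI, and *Krt6a* UMIs were also found in 1.91%, 2.92% and 0.353% of mesenchymal cells, the background of this division. *Grhl3* stood at 40.5, 26.9 and 13.7 CPM in *Krt6a*-detected cells and at 7.99, 9.80 and 3.47 CPM in *Krt6a*-undetected cells. Within each library the ratio was 5.07, 2.74 and 3.96. The mutant's *Krt6a*-detected value was above both controls' *Krt6a*-undetected values, so the values of the cell sets did not overlap. The intervals of the mutant's *Krt6a*-detected cells (9.77 to 18.8 CPM) and control 2's *Krt6a*-undetected cells (7.09 to 13.2 CPM) did. *Cdh1* stood at 185, 165 and 71.1 CPM against 58.5, 64.7 and 36.1 CPM, again without overlap of values, with ratios of 3.17, 2.55 and 1.97. The intervals of the same 2 sums overlapped for *Cdh1* too (61.7 to 81.6 and 57.4 to 72.7 CPM). The share of all genes without overlap of values was not counted.

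*Nectin1* was at 61.3, 44.2 and 26.1 CPM in *Krt6a*-detected and 22.9, 21.0 and 16.1 CPM in *Krt6a*-undetected cells. *Esrp1* was at 90.8, 63.2 and 33.8 CPM against 40.7, 38.1 and 26.7 CPM, and *Tfap2a* at 42.9, 29.7 and 16.5 CPM against 14.9, 17.1 and 11.3 CPM. For *Nectin1* the values of the sets did not overlap either. The intervals of the mutant's *Krt6a*-detected cells (20.5 to 32.7 CPM) and control 1's *Krt6a*-undetected cells (18.4 to 28.2 CPM) did. How many of all genes had no overlap between these sets was not counted. For *Esrp1* and *Tfap2a* the mutant's *Krt6a*-detected cells were below the *Krt6a*-undetected cells of at least 1 control, although each library had the higher value in its *Krt6a*-detected cells.

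The other 3 did not keep 1 direction in all libraries. *Trp63* was at 55.2, 33.0 and 19.7 CPM in *Krt6a*-detected cells and at 50.2, 54.5 and 38.5 CPM in *Krt6a*-undetected cells, higher in 1 library and lower in 2. *Grhl2* was at 46.6, 31.9 and 11.6 CPM against 22.7, 29.6 and 17.5 CPM, higher in both controls and lower in the mutant. *Esrp2* was at 49.1, 30.8 and 7.75 CPM against 15.5, 14.6 and 7.85 CPM, higher in both controls and level in the mutant, from 22 and 52 UMIs.

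The same edgeR test called 5 of the 8 higher in *Krt6a*-detected cells and 0 lower, where 4.52% of 12436 genes were called higher and 1.1% lower. At an unadjusted p under 0.05, 6 were higher and 1, *Trp63*, lower. *Grhl3* differed by 1.89 ± 0.24 on the log2 scale (SE derived from the fit, n = 3 libraries, adjusted p = 0.0012), *Cdh1* by 1.33 ± 0.13 (adjusted p = 0.00022) and *Nectin1* by 1.04 ± 0.17 (adjusted p = 0.0052). *Tfap2a* (0.91 ± 0.21, adjusted p = 0.031) and *Esrp1* (0.73 ± 0.16, adjusted p = 0.025) were nearer to the threshold. *Esrp2* (0.98 ± 0.28, adjusted p = 0.077), *Grhl2* (0.15 ± 0.25, adjusted p = 0.80) and *Trp63* (-0.56 ± 0.19, adjusted p = 0.14) did not pass. *Grhl3* and *Esrp1* thus passed the threshold and their paralogues *Grhl2* and *Esrp2* did not, and the difference between paralogues was not tested.

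**Figure D3:**
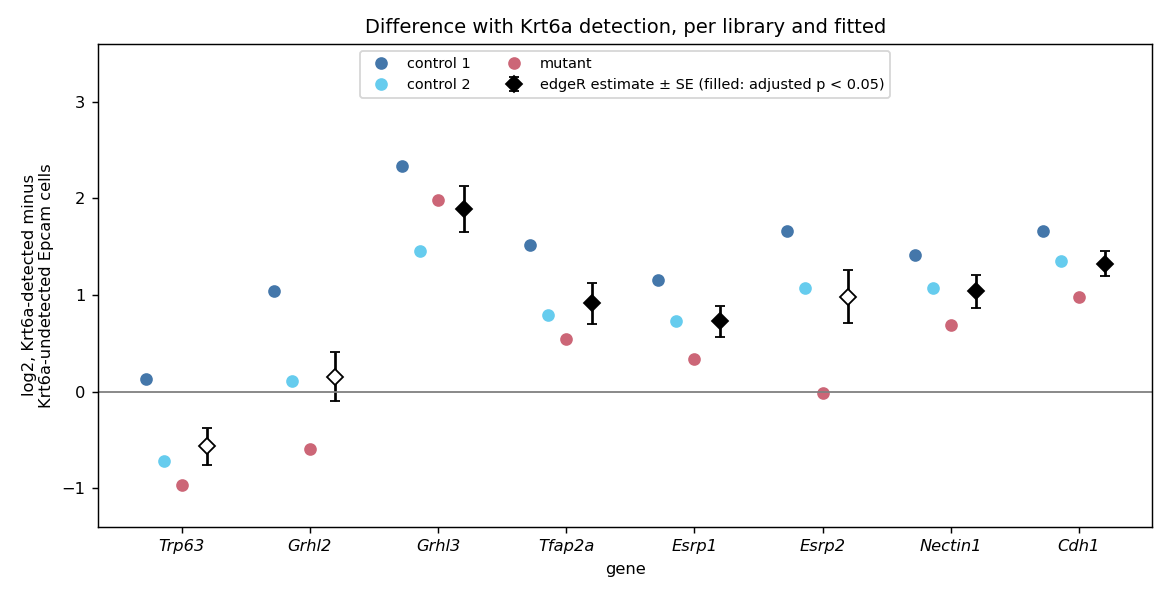
Log2 difference between *Krt6a*-detected and *Krt6a*-undetected *Epcam*-positive cells for each gene, in each library (circles) and as fitted by edgeR with its standard error (diamonds, filled where the adjusted p is below 0.05). *Grhl3* and *Cdh1* lie above 0 in every library, *Trp63* is below 0 in 2 of 3, and the mutant is the lowest circle for each gene but *Grhl3*.

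*Krt6a*-detected cells were deeper, with medians of 14854, 13047 and 14220 UMIs against 12258, 9338 and 9351, and in control 1 they held less mesenchymal RNA, with marker sums of 109, 473 and 643 CPM against 391, 511 and 631 CPM. A smaller share of them had exactly 1 *Epcam* UMI, at 13.95%, 19.2% and 14.7% against 50.6%, 46.6% and 40.1%. With those cells left out, edgeR still called *Grhl3* (1.57), *Cdh1* (0.99) and *Nectin1* (1.02) higher, at adjusted p of at most 0.00064. *Esrp2* (0.78, adjusted p = 0.049) was then called too. *Tfap2a* (0.65, adjusted p = 0.082) and *Esrp1* (0.46, adjusted p = 0.059) were not. Endothelial markers summed to 168, 21.8 and 91.2 CPM in *Krt6a*-detected against 35.8, 17.8 and 28.8 CPM in *Krt6a*-undetected cells, higher in each library, and their part in the differences was not tested. With the cells of at least 2 mesenchymal markers left out, *Grhl3* (1.67, adjusted p = 0.011), *Cdh1* (1.29, adjusted p = 5e-05) and *Tfap2a* (0.96, adjusted p = 0.046) were still called by edgeR, and *Nectin1* (0.68, adjusted p = 0.18) and *Esrp1* (0.58, adjusted p = 0.17) were not. Without control 2, *Cdh1* and *Grhl3* alone were called, at adjusted p of 0.0077 and 0.0080. Without control 1, *Trp63* was called lower (-0.83 ± 0.15, adjusted p = 0.0083), as it was among cells with at least 2 *Epcam* UMIs (-0.79 ± 0.17, adjusted p = 0.0061), and *Grhl3*, *Nectin1* and *Cdh1* were called higher. Without the mutant *Esrp2* was called too (1.38 ± 0.24, adjusted p = 0.011). DESeq2 called *Grhl3*, *Nectin1* and *Cdh1*, and none of the 8 was called when the library was left out of the edgeR model, where the adjusted p lay between 0.15 for *Grhl3* and 0.96 for *Grhl2*.

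The amount of *Krt6a* gave a finer division. In cells with 0, 1 to 4 and at least 5 *Krt6a* UMIs, *Cdh1* stood at 58.5, 105 and 258 CPM in control 1, at 64.7, 99.4 and 239 CPM in control 2 and at 36.1, 76.0 and 65.5 CPM in the mutant. *Cdh1* increased over the 3 classes in the controls and was not higher in the last class than in the middle one in the mutant, with overlapping intervals. *Grhl3* stood at 7.99, 28.3 and 51.6 CPM in control 1, at 9.80, 7.40 and 48.7 CPM in control 2 and at 3.47, 13.2 and 14.3 CPM in the mutant. *Trp63* stood at 50.2, 72.0 and 39.9 CPM in control 1, at 54.5, 28.5 and 38.0 CPM in control 2 and at 38.5, 25.8 and 12.8 CPM in the mutant. *Trp63* was thus lowest in the class richest in *Krt6a* in control 1 and the mutant but not in control 2. In control 1 the intervals of all classes overlapped, with 23.2 to 63.8 CPM in the richest. In the mutant those of the middle and richest classes overlapped. The class richest in *Krt6a* rests on 19, 47 and 59 cells.

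Around the members, 13 of 17 periderm-linked genes were called higher in *Krt6a*-detected cells and 0 lower, led by *Sprr1a* (5.04 ± 0.47), *Ly6d* (4.43 ± 0.27) and *Gabrp* (4.42 ± 0.38). Of 22 other epithelial transcription factors 6 were higher and 0 lower, led by *Grhl1* (2.48 ± 0.41), the third grainyhead-like gene, *Zfp750* (2.30 ± 0.27), a regulator of terminal epidermal differentiation, and *Ovol1* (1.84 ± 0.36). Of 15 adherens junction partners 7 were higher and 0 lower, led by *Nectin4* (2.31 ± 0.19), *Jup* (1.41 ± 0.11) and *Vcl* (1.17 ± 0.11). Of 18 p63-linked genes 10 were higher and 0 lower, led by *Pkp1* (2.82 ± 0.21), *Krt14* (1.96 ± 0.077) and *Sfn* (1.62 ± 0.083). Of 6 basal markers, 3 were higher, *Krt14*, *Itga6* (1.11 ± 0.14) and *Itgb4* (0.63 ± 0.15), and the summed basal level was 2360, 1712 and 1384 CPM in *Krt6a*-detected against 1102, 782 and 659 CPM in *Krt6a*-undetected cells.

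Of 17 other cleft-linked genes 5 were higher, led by *Tgfb3* (1.89 ± 0.24), a ligand of the medial edge epithelium, *Sfn* and *Arhgap29* (1.35 ± 0.15), and 1 was lower, the signal *Shh* (-1.44 ± 0.34). None of 11 splicing factors and none of 9 factors of epithelial-mesenchymal transition was called in this edgeR fit, in which 1316 genes were higher and 1055 lower at an unadjusted p under 0.05 and DESeq2 called 344 higher and 26 lower. The median log2 difference was 1.46 over the periderm-linked list, 0.64 over the p63-linked list and 0.25 over the transcription factors, beside -0.033 over all genes.

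The third comparison set the mutant beside the controls. With 1 mutant library there is no test, and no p-value is given. In *Epcam*-positive cells 8 of the 8 genes lay below both controls by more than the gap between the controls, a position that 27.1% of 8926 genes of at least 10 CPM also took, with 11.4% above. The log2 ratio of the mutant to the mean of the controls was -1.37 for *Esrp2* (gap between controls 0.14), -1.11 for *Grhl3* (0.11), -0.90 for *Cdh1* (0.22) and -0.86 for *Grhl2* (0.17). It was -0.71 for *Esrp1* (0.12), -0.65 for *Tfap2a* (0.066), -0.60 for *Trp63* (0.083) and -0.58 for *Nectin1* (0.096). The median over the 8 was -0.79, beside -0.044 over all genes.

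The mutant's *Epcam*-positive cells also had the highest mesenchymal marker sum (634 CPM against 342 and 500), the highest neuronal sum (136 CPM against 50.04 and 33.7) and the lowest basal sum (876 CPM against 1320 and 1051), and their part in these ratios was not tested. The neuronal sum of the mutant was higher still, at 232 CPM against 17.9 and 37.3, once the cells with mesenchymal markers were left out. *Epcam* itself, which chose the cells, stood at 255, 298 and 251 CPM. With the cells of at least 2 mesenchymal markers left out, 153, 183 and 300 *Epcam*-positive cells stayed. Their median depth was 12056, 6753 and 5992.5 UMIs, against 12597, 10258 and 10127 before, so depth fell more in control 2 and the mutant than in control 1. The part of depth in the ratios was not tested. In the cells that stayed, 6 of the 8 genes lay below both controls by more than the gap, against 31.2% of 8446 genes, with 13.6% above. *Esrp2* (-1.04, gap 0.12), *Nectin1* (-0.69, gap 0.027) and *Grhl3* (-0.68, gap 0.024) then had the lowest ratios. *Cdh1* (-0.39, gap 0.21), *Tfap2a* (-0.39, gap 0.39) and *Trp63* (-0.31, gap 0.18) came nearer to the controls than in all *Epcam*-positive cells, and *Grhl2* (-0.092, gap 0.31) and *Esrp1* (-0.16, gap 0.46) lay between them. The median over the 8 was then -0.39, beside -0.10 over all genes. In these cells the level of *Esrp2* rests on 50, 39 and 25 UMIs and that of *Grhl3* on 37, 27 and 23. *Tfap2a* is counted among the 6 by a narrow margin, on a ratio of -0.3918 against a gap of 0.3912. With at least 2 *Epcam* UMIs required as well, *Tfap2a* was within the gap (-0.41, gap 0.56).

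**Figure D4:**
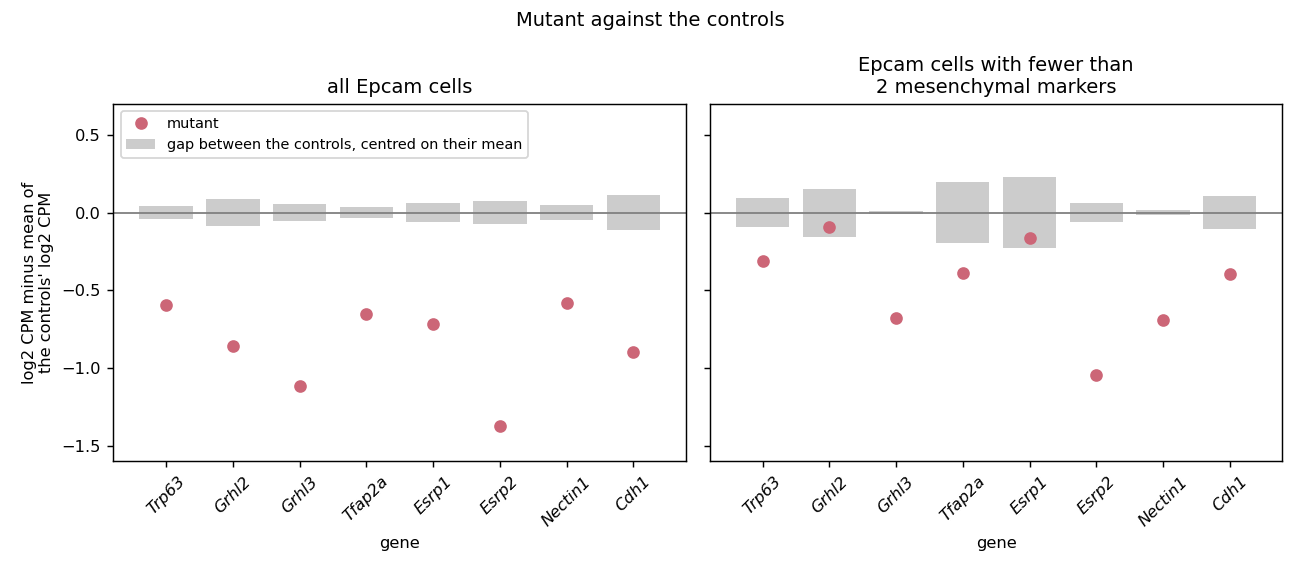
Log2 level of each gene in the mutant relative to the mean of the controls (points), in all *Epcam*-positive cells and in those with fewer than 2 mesenchymal markers; grey bars span the gap between the 2 controls. All 8 points lie below the bars on the left, and those of *Grhl2* and *Esrp1* lie within them on the right.

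Divided by *Krt6a*, 8 of the 8 genes lay below both controls by more than the gap in *Krt6a*-detected cells (26.1% of genes below, 13.9% above) and so did 7 of the 7 that averaged at least 10 CPM in *Krt6a*-undetected cells (26.6% below, 12.1% above), with *Grhl3*, under that level, below as well. In *Krt6a*-detected cells the ratio was -2.33 for *Esrp2* and -1.73 for *Grhl2*, and for the other 6 it was lowest in *Cdh1*, at -1.30. *Esrp2* there was at 49.1 and 30.8 CPM in the controls and 7.75 CPM in the mutant. In *Krt6a*-undetected cells *Grhl3* had the lowest ratio, at -1.35, and *Nectin1* and *Trp63* the nearest to 0, both at -0.44. Without the cells of at least 2 mesenchymal markers, *Esrp2* (-1.66, gap 0.25) and *Nectin1* (-1.36, gap 0.29) had the lowest ratios in *Krt6a*-detected cells, and *Grhl3* (-0.025, gap 0.76) and *Esrp1* (0.21, gap 1.41) lay between the controls.

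In mesenchymal cells, the tissue in which *Osr2*-Cre acts, 4 of the 5 that averaged at least 1 CPM were below both controls by more than the gap and 0 above, beside 27.9% and 11.4% of 13284 genes of that level. Of the other 3, which are under it, *Esrp2*, with 4, 6 and 14 UMIs, was above, and *Grhl2* and *Grhl3* were within the gap. The summed basal epithelial markers were also lowest in the mutant in these mesenchymal cells, at 81.6, 58.0 and 31.9 CPM. The part of RNA from epithelial cells in these low levels was not tested. *Tfap2a* had the lowest ratio, -2.82 with a gap of 0.40 between the controls. *Tfap2a* UMIs were found in 3.19%, 2.16% and 0.529% of mesenchymal cells at their own depth and in 0.641%, 0.958% and 0.0909% at 2000 UMIs per cell. Both controls were above the mutant in each of these measures. *Nectin1*, with 75, 80 and 187 UMIs, lay between the controls, at -0.077 with a gap of 0.44.

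The related lists were set beside the members in the same way. In *Epcam*-positive cells 12 of 17 p63-linked genes of at least 10 CPM, 11 of 15 periderm-linked genes, 5 of 6 basal markers and 8 of 15 transcription factors lay below both controls by more than the gap, where 27.1% of all genes did, beside 4 of 15 adherens junction partners, 5 of 16 cleft-linked genes, 3 of 10 splicing factors and 1 of 8 factors of epithelial-mesenchymal transition. Above both lay 3 of the last list, 2 each of the cleft-linked genes and junction partners, 1 periderm-linked gene and 0 of the others. With the cells of at least 2 mesenchymal markers left out, the counts below were 6 of 17, 7 of 15, 2 of 6, 7 of 21, 1 of 15, 3 of 12, 4 of 10 and 1 of 5 in the same order, where 31.2% of all genes lay below. The transition list here held *Prrx1*, *Twist1* and *Twist2*, and the cleft-linked list *Msx1* and *Pdgfra*, which are mesenchymal gate markers. The shares over all genes leave these markers out, and the cells were left out by them. The counts of these lists and their change are therefore not read as results. The median log2 ratio over periderm-linked genes went from -0.86 to -0.25 and that over p63-linked genes from -0.59 to -0.28, beside -0.044 and -0.099 over all genes. Both medians thus came nearer to 0 in the cells with fewer mesenchymal markers, as that of the 8 genes did. Fewer epithelial cells behind the *Epcam* UMIs and less of this RNA per epithelial cell cannot be told apart in these sums.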

How the data were processed

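The authors deposited raw UMI counts per gene and barcode, 1 matrix per library, from soft palate cells. The matrix headers and the protocol name Cell Ranger 4.0.0, while the submitters' processing notes list Cell Ranger 3.1.0 and mm10; the authors' merging of the controls is not in these counts. Groups came from the sample titles. Kept barcodes had 500 genes or more and no more than 10% mitochondrial UMIs, and the highest Scrublet scores were left out at 0.8% per 1000 barcodes (63, 132 and 604 barcodes), since Scrublet's own threshold marked 0, 0 and 1. Cells were not clustered. A cell with at least 1 *Epcam* UMI was taken as *Epcam*-positive; 7 other gates needed 0 *Epcam* UMIs, at least 2 of 6 markers and fewer than 2 of every other gate, and 28.7%, 28.2% and 34.0% of cells entered no gate. *Krt6a* has close keratin relatives, so its counts may be split among them.

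Counts were summed per library and cell set and scaled to CPM. Intervals are exact Poisson (CPM) or Clopper-Pearson (shares) at 95%, and cover counting error only. edgeR 4.0.16 (TMM, filterByExpr, library block) in R 4.3.3 gave the tests, with calls at an adjusted p below 0.05. Each SE after ± is the absolute log2 difference divided by the square root of its F statistic. It is not the standard error of the differences seen in the single libraries, which can be larger. In these tests gate markers, *Epcam* and *Krt6a* stayed in the scaling, the fit and the adjustment. They were left out of the counts of genes tested and called where they define a set. Gate markers stayed in the lists that were set beside the genotype. In simulated counts 96% (epithelium against mesenchyme, 14015 genes) and 95.5% (*Krt6a*, 12438 genes) of 200 genes changed by a log2 of 2 were recovered. False calls numbered 10 and 11, or 4.95% and 5.45% of the calls. The counts were drawn from the dispersion that edgeR fitted, with the same profile in every library. Differences between libraries other than depth were thus not simulated, so these rates do not check the calls in the real sums. Smaller changes were not simulated. Each *Krt6a* difference of the 8 genes was smaller than 2, so the recovery of such differences is not known. For the genotype, a gene is below both controls when the mutant is under each and its log2 ratio exceeds their gap; counts of 0 were set to 3 UMIs. Alternatives were DESeq2 1.42.0, other scaling, filters, gates and depths, and each library left out. Python 3.11.15, numpy 2.4.6, scipy 1.17.1, pandas 2.3.3 and scanpy 1.11.5 were used. Of 32285 gene identifiers 32235 matched GENCODE, and RefSeq promoters were matched for 2 of the 8 genes. Named genes are the 8, up to 3 called genes per list and direction with the largest difference, and the 3 most alike genes; some genes under this rule are not reported here. The 8 genes and the lists were chosen with earlier results of these data known.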

Additional observations from a re-analysis of the deposited data

Results flagged for a closer look

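*Grhl2* and *Esrp2* drew attention because the difference between *Krt6a*-detected and *Krt6a*-undetected cells was above 0 in both controls and below 0 in the mutant, for *Esrp2* only just so. In the order control 1, control 2, mutant, the log2 difference of *Grhl2* was 1.04, 0.11 and -0.59 and that of *Esrp2* was 1.67, 1.08 and -0.018. With the cells of at least 2 mesenchymal markers left out, *Grhl2* stood at 0.51, 0.34 and -0.099 and *Esrp2* at 0.97, 1.29 and 0.24, so the sign of *Esrp2* then was the same in each library. The difference between the genotypes was not tested, since there is 1 mutant library, and the values of the mutant rest on 33 and 22 UMIs in its *Krt6a*-detected cells.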

How the results depend on the processing

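In *Epcam*-positive against mesenchymal cells, 103 of 104 values of the members kept direction and side of the threshold; *Tfap2a* was not called without the library block. The genes called higher, 2295 of 14007 tested, came to 958 of 13468 with no replicate block and 997 of 8814 in thinned cells. Those called lower, 2156, came to 321 and 980 in these settings, and to 1228 of 14007 by DESeq2. Leaving out a library gave 1205 to 2568 higher and 742 to 2356 lower, the lowest without control 2.

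By *Krt6a*, 80 of 108 member values kept both, 20 lost the call, 6 gained it and 2 reversed, both of *Grhl2* (-0.18 to 0.53 with a library left out, below 0 without control 1; -0.090 with at least 2 *Epcam* UMIs). The members called higher, 5, came to 3 by DESeq2 and without cells of at least 2 mesenchymal markers, to 2 in thinned cells, where *Grhl2*, *Grhl3*, *Tfap2a* and *Esrp2* were too low to be tested, to 2 with at least 2 *Epcam* UMIs and fewer than 2 mesenchymal markers, chosen after seeing the data, to 0 in edgeR with no replicate block (5 at an unadjusted p under 0.05), and to 2 to 6 when a library was left out. Those called lower, 0, came to 1 with no low-count filter, with at least 2 *Epcam* UMIs and without control 1 (range 0 to 1), each time *Trp63*. Genes called higher, 562 of 12436 tested, came to 344 of 12436 by DESeq2, 122 of 11938 with no replicate block and 208 of 2832 in thinned cells, and 228 to 503 with a library left out. Genes called lower, 137, came to 557 of 20356 without the filter, 26 by DESeq2, 0 in edgeR with no replicate block (285 at an unadjusted p under 0.05), 306 of 11704 with at least 2 *Epcam* UMIs, 255 of 8547 without cells of at least 2 mesenchymal markers and 129 of 2832 in thinned cells, and 14 to 130 with a library left out. As the numbers tested differ, a smaller count need not be a smaller share, and in thinned cells the share called was larger in both directions. The cause of these moves was not tested.

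The median log2 ratio of the 8 in the mutant, -0.79, came to -0.88 with at least 2 *Epcam* UMIs, -0.39 without cells of at least 2 mesenchymal markers, -0.44 with both, -0.51 in thinned cells and -0.50 as a mean over cells, and stayed between -0.82 and -0.77 with a control left out. None of the 80 single ratios reversed. Of them 39 moved by more than the main gap between the controls divided by the square root of 2. The ratio of *Grhl3* went from -1.11 to -0.086 in thinned cells, where the gap was 0.034 and it still counted as below both. Between 6 and 8 of the 8 were below both controls by more than the gap in each setting that kept both controls. Over all genes of at least 10 CPM that share was 27.1% in the main setting and 31.2% without cells of at least 2 mesenchymal markers. It was not counted in the other settings, so the counts there cannot be weighed. A member had 22 to 295 UMIs in the sums of *Krt6a*-detected cells and as few as 0 in mesenchymal cells and the other gates, which limits what these sums can show.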

Other observations

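Cells with no *Epcam* UMI that entered no gate, 590, 1041 and 2558 of them, carried the 8 genes at low levels. In the order control 1, control 2, mutant, *Nectin1* stood there at 12.2, 11.9 and 7.26 CPM, *Trp63* at 4.69, 5.83 and 3.38 CPM, and *Grhl3* at 0.335, 0.624 and 0.493 CPM from 2, 3 and 7 UMIs. Of the 8 genes 7 were above their mesenchymal level in both controls, and *Tfap2a* was below it in both. The mutant differed. There *Grhl2* (0.705 against 0.727 CPM), *Grhl3* (0.493 against 0.687), *Esrp2* (0.493 against 0.566) and *Nectin1* (7.26 against 7.55) were below it. *Tfap2a* was above it in the mutant (1.62 against 0.808 CPM), as were *Trp63*, *Esrp1* and *Cdh1*. Several of these differences had overlapping intervals, as for *Grhl3* in both controls, *Cdh1* in control 1 and *Tfap2a* in control 2. The intervals of the 5 genes with printed values in the mutant overlapped too. How many of all genes stood above their mesenchymal level in these cells was not counted.

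The number of *Epcam* UMIs divided the cells as well. In cells with exactly 1 *Epcam* UMI, which were 45.3%, 40.7% and 34.5% of the *Epcam*-positive cells, *Cdh1* stood at 10.6, 48.7 and 24.2 CPM and *Col1a1*, a collagen gene of mesenchyme, at 1039, 1251 and 1665 CPM. In cells with at least 5 *Epcam* UMIs *Cdh1* stood at 148, 141 and 73.2 CPM and *Col1a1* at 149, 549 and 1167 CPM. Even in the latter the mutant had the highest *Col1a1* and the lowest level of each of the 8 genes. The share of all genes lowest in the mutant was not counted in these cells. In all *Epcam*-positive cells it was 38.1% of 8926 genes of at least 10 CPM.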
